A study of Homo sapiens with 7 samples.

Results

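Adhesion G protein-coupled receptors are described here in the ovarian carcinoma line SKOV3, across clones labelled scramble control, CtBP1 knockdown or CtBP2 knockdown. The 10 genes chosen were ADGRG1, ADGRG2, ADGRG6, ADGRE5, ADGRL1, ADGRL2, ADGRL4, ADGRF1, ADGRF4 and ADGRA3, of 32 protein-coding family genes listed and of 17958 genes measured in all. A gene was measured where the array's annotation gave a transcript cluster exactly 1 symbol, and 9 of the 10 met this. The cluster for ADGRF4 is shared with ADGRF2P, so ADGRF4 was not analysed here. Each of the 9 had 1 cluster, so the rule of taking the brightest cluster chose nothing. The genes were chosen by family name and from earlier results of these same signals, in which ADGRG1 was among the top differences, so their differences are given as descriptions beside the fit over all genes.

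Adhesion receptors carry a long extracellular part with adhesive domains, followed by a membrane part with the helices common to G protein-coupled receptors. Most are cut by themselves in a juxtamembrane domain, and the peptide freed when the outer fragment is pulled away can act as a tethered agonist. They bind matrix proteins or proteins on neighbouring cells and signal through G proteins, often towards the small GTPase RhoA. CtBP1 and CtBP2 are transcriptional co-repressors without DNA contacts of their own, brought to genes by DNA-binding factors such as the ZEB proteins.

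The signals come from 7 Affymetrix Human Gene 1.1 ST arrays, 1 per RNA sample: 2 of scramble control, 3 of CtBP1 knockdown and 2 of CtBP2 knockdown, each described as a stable clone made with lentivirus and grown under puromycin, the controls included. All values are log2 signals, on which 1 unit is a doubling. Nothing in the labels says whether cultures were grown apart, so a p-value here reflects only array-to-array spread, possibly technical. Over all genes, correlations of scramble control 1 with the rest were 0.926 to 0.941, while the other 6 correlated with each other at 0.971 to 0.993, and the interquartile range of scramble control 1 was 2.20 against 2.85 to 3.15. Among genes above the upper quartile of mean signal, it was lower than scramble control 2 by a median difference of -0.73. The targeted gene CTBP2 was at 4.64 and 4.22 after its own knockdown, below all 5 other arrays. CTBP1 had 5.11, 6.13 and 6.13 on the arrays labelled CtBP1 knockdown, against 5.69 and 6.37 on the scramble arrays, so it did not separate them and that group is named by its label throughout. The epithelial markers KRT8 (mean 8.77) and KRT18 (7.64) and the ovarian marker PAX8 (7.60) were above the median of the gene means, 3.25. The markers CDH1 (2.63), CLDN4 (2.62) and WT1 (2.15) were below it. The summed signals of 8 epithelial markers were 43.1 to 44.9 on the scramble arrays, 44.1 to 47.4 on those labelled CtBP1 knockdown, and 47.8 to 50.9 on the CtBP2 knockdown arrays, which lay above all others. Those of 6 ovarian markers were 29.2 to 31.2, 32.4 to 34.0 and 31.3 to 33.1. Both knockdown groups lay above scramble, the CtBP2 knockdown only narrowly (31.3 against 31.2). Single markers weigh on such sums: KRT7 ranged from 5.65 to 9.64 over the 7 arrays, KRT8 from 8.35 to 9.35 and KRT18 from 7.36 to 8.10. The medians of the epithelial markers were 5.57 to 5.90 on scramble, 5.89 to 6.28 with the CtBP1 knockdown label and 6.37 to 6.56 on CtBP2 knockdown. The part of these marker differences in the receptor results was not tested.

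The sequences around the annotated transcript starts of 3 receptor genes are printed first, because on both CtBP2 knockdown arrays these genes lay above both controls in signal and in rank within the array, though none passed the test over all genes. RefSeq promoter windows of GRCh38.p14, from 250 bases before to 50 after a start, were held for 8 of the 10 genes, at 17 starts in all. None was held for ADGRE5 or ADGRL1. Each window is shown 5′ to 3′ on the gene's strand, and capitals mark matches on either strand to 3 motifs of factors known to bring CtBP proteins to DNA: CAGGTG (the E-box of ZEB factors), CACACCC (an element of Krüppel-like factors) and AGATAA (an element of GATA factors).
ADGRG1 start 1 (chr16:57619488-57619787, + strand): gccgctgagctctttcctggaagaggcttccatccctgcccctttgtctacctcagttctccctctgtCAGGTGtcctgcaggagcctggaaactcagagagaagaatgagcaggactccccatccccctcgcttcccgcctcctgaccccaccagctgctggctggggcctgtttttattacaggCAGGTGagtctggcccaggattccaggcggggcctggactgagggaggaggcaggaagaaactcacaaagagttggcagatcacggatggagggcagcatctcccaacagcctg
ADGRG1 start 2 (chr16:57619796-57620095, + strand): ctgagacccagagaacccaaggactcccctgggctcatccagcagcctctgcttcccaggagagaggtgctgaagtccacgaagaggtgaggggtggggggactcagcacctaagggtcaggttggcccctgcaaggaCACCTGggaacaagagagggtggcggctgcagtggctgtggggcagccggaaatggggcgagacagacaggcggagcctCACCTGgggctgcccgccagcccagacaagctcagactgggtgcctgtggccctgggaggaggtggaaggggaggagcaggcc
ADGRG1 start 3 (chr16:57628380-57628679, + strand): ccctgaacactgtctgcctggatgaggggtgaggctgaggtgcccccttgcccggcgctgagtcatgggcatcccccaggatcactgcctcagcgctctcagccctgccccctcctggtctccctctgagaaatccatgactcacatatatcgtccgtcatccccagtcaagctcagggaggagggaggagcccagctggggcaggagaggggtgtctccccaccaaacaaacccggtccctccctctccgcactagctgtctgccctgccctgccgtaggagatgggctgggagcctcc
ADGRG6 (chr6:142301757-142302056, + strand): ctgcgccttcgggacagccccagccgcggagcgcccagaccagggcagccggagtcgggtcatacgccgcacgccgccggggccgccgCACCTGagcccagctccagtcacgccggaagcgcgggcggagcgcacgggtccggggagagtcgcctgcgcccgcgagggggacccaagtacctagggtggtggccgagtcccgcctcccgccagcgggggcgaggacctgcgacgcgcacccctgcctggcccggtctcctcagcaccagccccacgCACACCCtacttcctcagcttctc
ADGRA3 (chr4:22516017-22516316, - strand): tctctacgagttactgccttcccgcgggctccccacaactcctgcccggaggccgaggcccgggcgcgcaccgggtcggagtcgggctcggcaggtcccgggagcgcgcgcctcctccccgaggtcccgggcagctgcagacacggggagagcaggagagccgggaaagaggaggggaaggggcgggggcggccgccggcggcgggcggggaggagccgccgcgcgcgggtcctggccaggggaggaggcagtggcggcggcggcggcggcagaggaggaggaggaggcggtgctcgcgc

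ADGRG1 starts 1 and 2 each held 2 E-box matches, beginning at -182 and -64 from the first transcribed base at start 1 and at -112 and -33 at start 2, and start 3 held none of the 3 motifs. The ADGRG6 window held an E-box match at -162 and a Krüppel-like match at 26 downstream of the start, and the ADGRA3 window held no match to the 3 motifs. No printed matches overlap. Over the 17 windows, 4 held the E-box, 4 the Krüppel-like element and 2 the GATA element. Among the windows not printed, those of ADGRL2 held matches to all 3 motifs. That of ADGRF1 held the Krüppel-like element and that of ADGRF4 the GATA element. The matches were thus not confined to the genes printed, and a link between motifs and signals was not tested. Of all 35116 windows of this length in the table, 20.6% held the E-box, 7.56% the Krüppel-like element and 10.3% the GATA element, so an E-box match is common and is a description, not a binding site. The ADGRG1 windows had 5, 6 and 8 CG dinucleotides, below the median of 14 over all windows, at a G and C content of 59.7%, 66% and 64.3%. The ADGRG6 and ADGRA3 windows had 36 and 40 CG dinucleotides.

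ADGRG1, also known as GPR56, binds collagen III and transglutaminase 2 and signals through G12 and G13 proteins to RhoA. Its log2 signals were 3.32 and 3.20 on the scramble arrays, 5.29, 5.84 and 6.49 on those labelled CtBP1 knockdown, and 4.47 and 4.38 on the CtBP2 knockdown arrays. The 3 groups did not overlap: every array labelled CtBP1 knockdown lay above both CtBP2 knockdown arrays, and these lay above both controls. The same order held for 45 of 17958 genes (0.251%), and both knockdowns lay above both controls for 714 (3.98%). Relative to scramble, the signal differed by 2.61 ± 0.33 (SE from limma, 3 arrays against 2), or 6.12-fold, for the arrays labelled CtBP1 knockdown, the third highest of all genes. It was 1.16 ± 0.37 (2 against 2), or 2.24-fold, for the CtBP2 knockdown, and the CtBP2 knockdown lay below the arrays labelled CtBP1 knockdown by -1.45 ± 0.33. None of these passed the limma test over all genes, at adjusted p of 0.734, 0.42 and 0.331. The first of these values was the lowest of any gene in its comparison and was shared with other genes, ADGRL1 among them. By unadjusted p in limma (0.000226) ADGRG1 ranked 4 of 17958 there, and ADGRL1 ranked 756. The scramble arrays differed by 0.12 on this gene, against an SD of 0.60 among the arrays labelled CtBP1 knockdown. The SD of the CtBP2 knockdown arrays was 0.066. For every gene the fit takes 1 spread from all 3 groups. The SE and adjusted p of CtBP2 knockdown against scramble therefore also carry the spread of the arrays labelled CtBP1 knockdown. Without scramble control 2 the first difference was 2.55 at an adjusted p of 0.0279, with scramble control 1 as the lone control. That was the 1 alternative under which it passed, and 3262 of 17958 genes passed there.

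**Figure D1:**
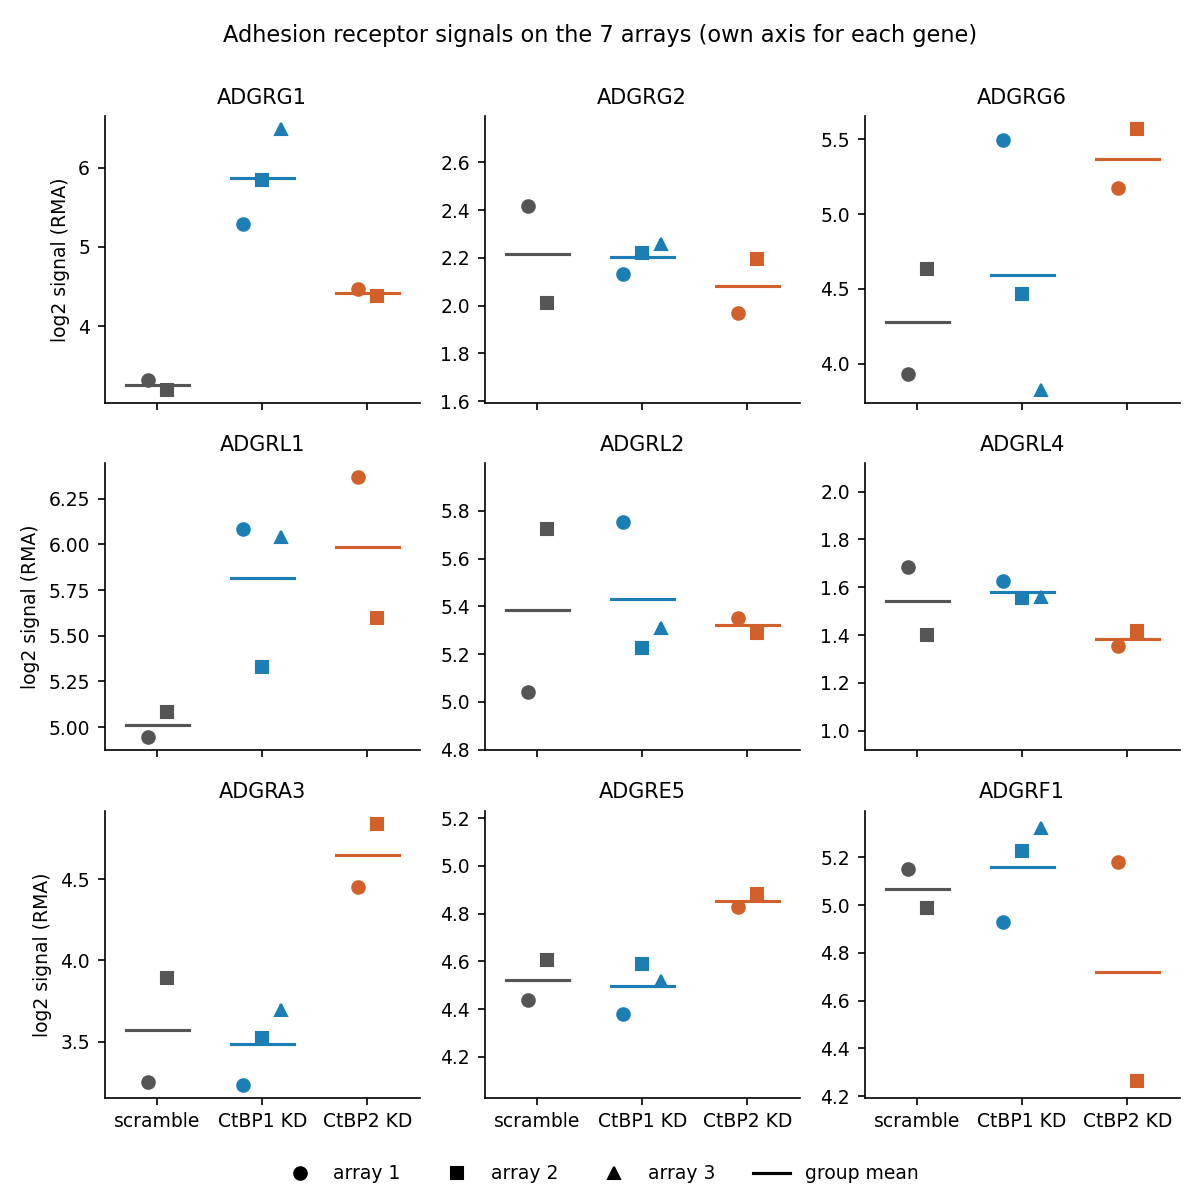
Log2 signal (vertical axis, own scale for each gene) of the 9 measured adhesion receptor genes in the scramble, CtBP1 knockdown (CtBP1 KD, as labelled) and CtBP2 knockdown (CtBP2 KD) groups; each point is an array and each line a group mean. ADGRG1 shows 3 groups that do not overlap, with scramble at 3.20 to 3.32 and the arrays labelled CtBP1 knockdown at 5.29 to 6.49.

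The latrophilins ADGRL1 and ADGRL2 bind teneurins and FLRT proteins on neighbouring cells, and ADGRL1 was found as the receptor of a spider toxin. ADGRL1 had log2 signals of 4.95 and 5.08 on the scramble arrays, 6.08, 5.33 and 6.04 on those labelled CtBP1 knockdown, and 6.37 and 5.59 on the CtBP2 knockdown arrays. All 5 knockdown arrays lay above both controls, while the 2 knockdown groups overlapped each other. The differences from scramble were 0.81 ± 0.32 and 0.97 ± 0.35 (SE), at adjusted p of 0.734 and 0.45 in the limma fit, and the knockdowns differed from each other by 0.17 (95% interval -0.62 to 0.95). Without CtBP2 knockdown array 1 the second difference was 0.58. ADGRL2 had 5.04 and 5.73 on the scramble arrays, 5.75, 5.23 and 5.31 on those labelled CtBP1 knockdown, and 5.35 and 5.29 on the CtBP2 knockdown arrays. All its knockdown arrays but one lay between the controls, and that one exceeded the higher control by less than the controls differed. Its differences from scramble were 0.05 (95% interval -0.58 to 0.67) and -0.06 (-0.74 to 0.62), and both changed sign when a single scramble array was left out. Without scramble control 1 they were -0.30 and -0.40, and without scramble control 2 they were 0.39 and 0.28.

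ADGRL4, known from endothelial cells, had a mean signal of 1.51, below the lower quartile of the gene means (2.12), and ranged from 1.35 to 1.68. The endothelial markers were also dim: 0 of 10 had a mean above the median of all genes. Their summed signals were 21.3 to 23.0 on the scramble arrays, 19.9 to 20.4 on the arrays labelled CtBP1 knockdown and 20.1 to 20.3 on the CtBP2 knockdown arrays. At such dim signals nothing is read from the gap between these sums. The scramble arrays of ADGRL4 (1.68 and 1.40) spanned nearly the whole range of the gene. It differed from scramble by 0.04 (95% interval -0.27 to 0.35) for the arrays labelled CtBP1 knockdown and by -0.16 (-0.49 to 0.18) for the CtBP2 knockdown. Both CtBP2 knockdown arrays (1.35 and 1.42) lay below the arrays labelled CtBP1 knockdown (1.63, 1.55 and 1.56), by -0.19 ± 0.13.

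ADGRA3, also called GPR125, is an orphan receptor linked to planar cell polarity. Its log2 signals were 3.25 and 3.89 on the scramble arrays, 3.24, 3.52 and 3.70 on those labelled CtBP1 knockdown, and 4.45 and 4.84 on the CtBP2 knockdown arrays. Both CtBP2 knockdown arrays lay above all 5 others, and the arrays labelled CtBP1 knockdown overlapped the controls. The CtBP2 knockdown exceeded scramble by 1.07 ± 0.27 (SE, 2 arrays against 2), or 2.11-fold, at an adjusted p of 0.357 in the limma fit. It exceeded the arrays labelled CtBP1 knockdown by 1.16 ± 0.25, or 2.23-fold, at an adjusted p of 0.3, and that value reached 0.0464 with array weights. The difference from scramble was 0.75 without scramble control 1, and 1.39 at an adjusted p of 0.0256 without scramble control 2, where 3952 genes passed. The arrays labelled CtBP1 knockdown differed from scramble by -0.09 (95% interval -0.70 to 0.53). A second cluster shared with the pseudogene ADGRA3P1 was left out, and signal from that copy cannot be told apart where probes match both.

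ADGRG6, or GPR126, binds collagen IV and laminin and drives myelination by Schwann cells through cyclic AMP. It had log2 signals of 3.93 and 4.63 on the scramble arrays, 5.50, 4.46 and 3.83 on those labelled CtBP1 knockdown, and 5.17 and 5.57 on the CtBP2 knockdown arrays. The arrays labelled CtBP1 knockdown were spread widely, with an SD of 0.84, and overlapped both other groups. Both CtBP2 knockdown arrays lay above both controls, with a difference of 1.09 ± 0.55 (SE) at an adjusted p of 0.528 in the limma fit. The 95% interval ran from -0.25 to 2.43. The spread behind this SE includes that of the arrays labelled CtBP1 knockdown. The arrays labelled CtBP1 knockdown differed from scramble by 0.31 ± 0.50, which turned to -0.14 without CtBP1 knockdown array 1 and to -0.04 without scramble control 1. ADGRG2, a receptor of the epididymis also called GPR64, ranged only from 1.97 to 2.42 over the 7 arrays, and its scramble arrays (2.42 and 2.01) spanned nearly that range. It differed from scramble by -0.01 (95% interval -0.40 to 0.38) and -0.13 (-0.56 to 0.30).

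ADGRE5, or CD97, is a leukocyte and carcinoma receptor that binds CD55. Its log2 signals were 4.44 and 4.61 on the scramble arrays, 4.38, 4.59 and 4.52 on those labelled CtBP1 knockdown, and 4.83 and 4.88 on the CtBP2 knockdown arrays. The CtBP2 knockdown arrays lay above all others, though by a small step of 0.33 ± 0.13 (SE) from scramble, or 1.26-fold, at an adjusted p of 0.489 in the limma fit. After renewed quantile normalization that difference was -0.0018, so its direction depended on the scaling of the arrays. Of 9 leukocyte markers measured, 1 had a mean above the median of all genes, CD68 at 6.61, and the pan-leukocyte gene PTPRC had a mean of 1.63. The summed leukocyte markers were 21.9 to 23.5 on the scramble arrays, 21.1 to 22.5 on the arrays labelled CtBP1 knockdown and 21.5 to 21.7 on the CtBP2 knockdown arrays. In bulk RNA fewer cells of a type and less RNA per cell cannot be told apart. ADGRF1, or GPR110, which responds to a fatty acid amide of the nervous system, had 5.15 and 4.99 on the scramble arrays, 4.93, 5.23 and 5.32 on those labelled CtBP1 knockdown, and 5.18 and 4.26 on the CtBP2 knockdown arrays. A single array, CtBP2 knockdown 2, was low and the other 6 lay between 4.93 and 5.32. The CtBP2 knockdown differed from scramble by -0.35 ± 0.31, which turned to 0.11 without that array.

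**Figure D2:**
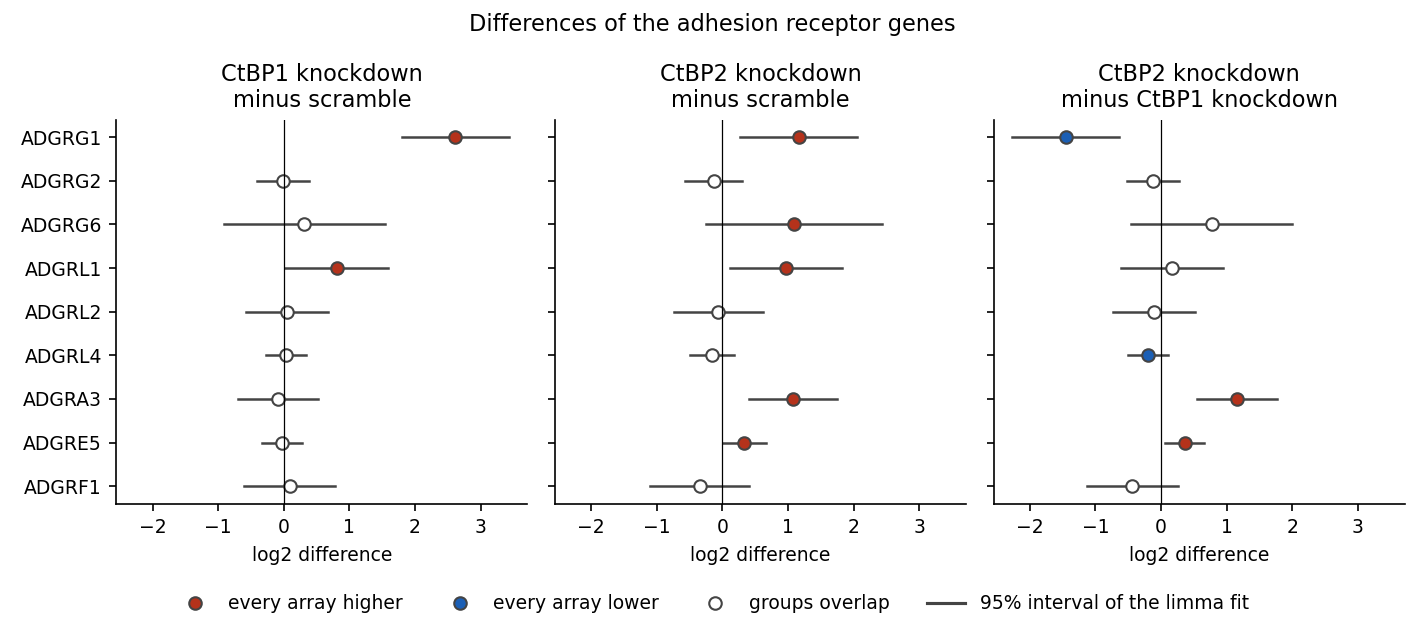
Log2 differences (horizontal axis) of the 9 receptor genes in the 3 comparisons, with 95% intervals of the limma fit on all 7 arrays; filled points mark groups that do not overlap. ADGRG1 and ADGRL1 lie to the right of 0 in both comparisons with scramble, while ADGRA3 lies near 0 for the arrays labelled CtBP1 knockdown (-0.09) and at 1.07 for the CtBP2 knockdown.

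The comparisons of each knockdown with scramble ask which genes differ between clones so labelled, and both use the same controls. For the arrays labelled CtBP1 knockdown, ADGRG1 and ADGRL1 lay above scramble on every array, so 2 of the 9 receptor genes did so and 0 lay below. Over all genes 6.76% lay above and 7.59% below on every array. No gene passed in limma after adjustment at 0.05 (0 of 17958, 0%), while 516 higher genes (2.87%) and 345 lower genes (1.92%) had an unadjusted p under 0.05. The same 2 receptor genes were among the former. For the CtBP2 knockdown, 5 of the 9 (ADGRG1, ADGRL1, ADGRA3, ADGRG6 and ADGRE5) lay above scramble on both arrays and 0 below, against 19.3% and 21.7% of all genes. Limma called 1 gene (0.00557%), which was no receptor gene. Of the receptor genes, 4 had an unadjusted p under 0.05 and were higher (ADGRG1, ADGRL1, ADGRA3 and ADGRE5), against 7.19% of all genes, and 0 were lower, against 2.98%. On average 6 and 5 of the 9 lay above scramble, against 49.1% and 47.2% of all genes. The medians of the 9 differences were 0.05 and 0.33, against -0.0047 and -0.020 over all genes. They were 0.089 and 0.0090 after renewed quantile normalization. With that scaling 2 and 3 of the 9 lay above scramble on every array, against 10.3% and 21.3% of all genes. Below it lay 0 and 1 of the 9, against 10.9% and 22.4%. The genes were chosen with these contrasts known, so these shares describe the choice and nothing is read from them.

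The direct comparison asks which genes differ between the knockdowns. Higher on both CtBP2 knockdown arrays than on all arrays labelled CtBP1 knockdown were ADGRA3 and ADGRE5, and lower were ADGRG1 and ADGRL4, or 2 and 2 of 9, against 15.8% and 16.2% of all genes. ADGRE5 differed by 0.36 ± 0.12 (SE) at an adjusted p of 0.532. Limma called 0 of 17958 genes here (0%), with 954 (5.31%) higher and 441 (2.46%) lower at an unadjusted p under 0.05, and the 9 receptor genes had adjusted p from 0.3 to 0.998. On average 4 of the 9 were higher in the CtBP2 knockdown, against 46.8% of all genes. With array weights 272 genes passed.

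Because scramble control 1 has a compressed range of signals, each gene was also placed by its percentile among the 17958 genes of the same array, which no monotone rescaling of an array can change. ADGRG1 stood at percentiles 53.1 and 49.7 on the scramble arrays, 77.2, 85.5 and 88.9 on those labelled CtBP1 knockdown, and 65.4 and 64.7 on the CtBP2 knockdown arrays, in the same order of groups as its signals. ADGRA3 stood at 51.6 and 58.5 on the scramble arrays, 50.1, 55.0 and 55.2 on those labelled CtBP1 knockdown, and 65.2 and 70.8 on the CtBP2 knockdown arrays. For ADGRA3 the CtBP2 knockdown arrays thus lay above all 5 others, and the other groups overlapped. ADGRG6 also kept both CtBP2 knockdown arrays (74.7 and 80.0) above both controls (65.4 and 68.0). ADGRL1 did not: it stood at 80.6 and 73.9 on the scramble arrays, and at 79.8 on the array labelled CtBP1 knockdown 2 and 80.4 on CtBP2 knockdown array 2, both below scramble control 1. ADGRE5 stood at 73.9 on scramble control 1, above both CtBP2 knockdown arrays (70.3 and 71.4).

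**Figure D3:**
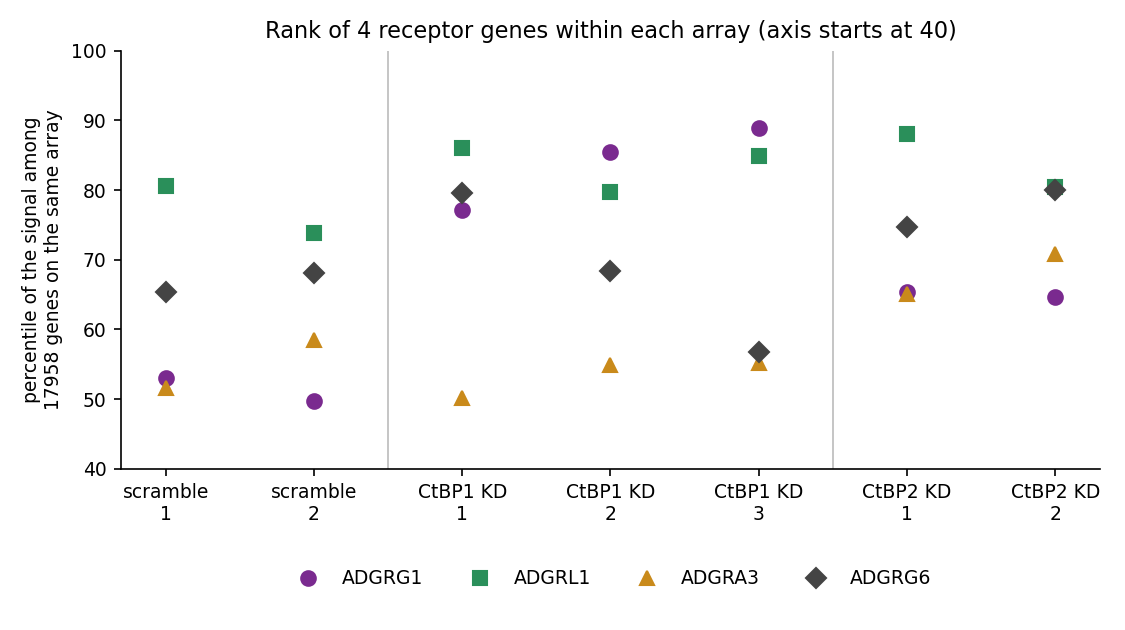
Percentile (vertical axis, from 40 to 100) of ADGRG1, ADGRL1, ADGRA3 and ADGRG6 among the 17958 genes of the same array, for each of the 7 arrays; percentiles are to be read within a gene. ADGRG1 is lowest on the 2 scramble arrays (53.1 and 49.7), while ADGRL1 on scramble control 1 (80.6) lies among its knockdown arrays.

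**Figure D4:**
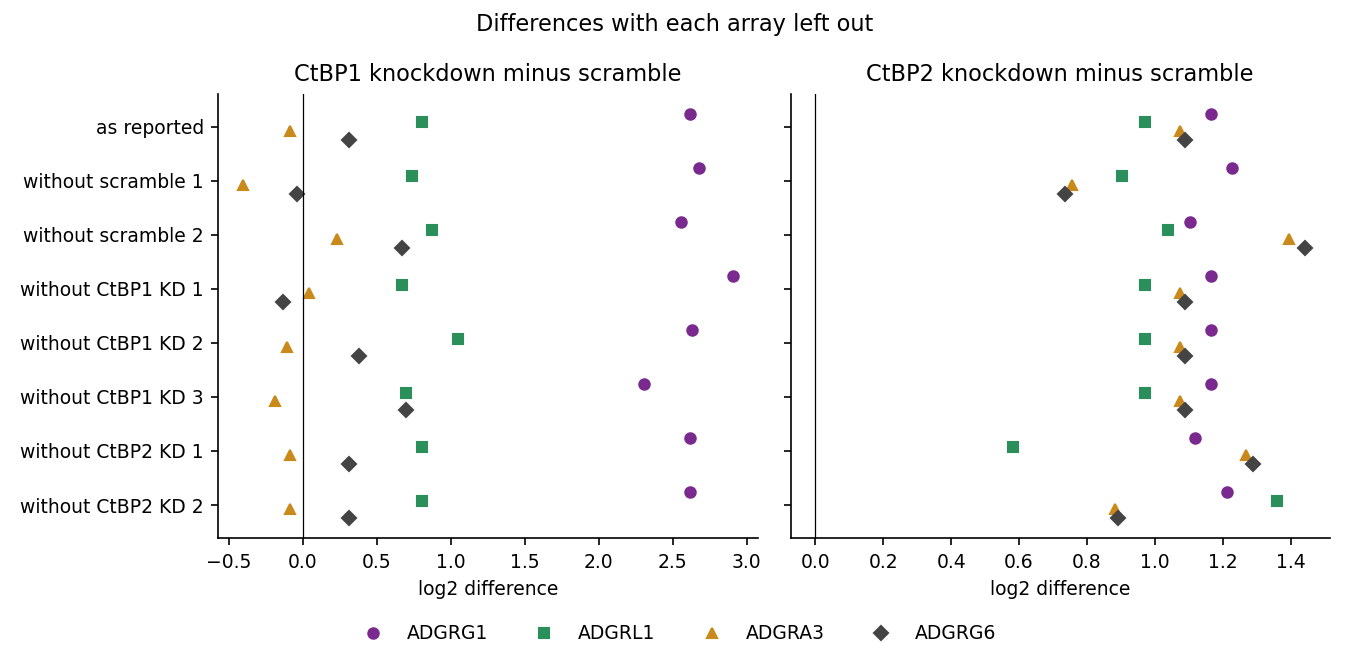
Log2 differences from scramble (horizontal axis) of the same 4 genes as reported and with each of the 7 arrays left out; the genes are offset vertically for legibility. ADGRG1 stays between 2.31 and 2.91 for the arrays labelled CtBP1 knockdown, and ADGRG6 crosses 0 there (-0.14 to 0.70).

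The other 19 measured family genes were read beside these 9. On the arrays labelled CtBP1 knockdown 0 of the 19 lay above scramble on every array and 3 lay below, and for the CtBP2 knockdown 1 lay above and 9 below, with median differences of -0.11 and -0.18. Over all genes 6.76% lay above and 7.59% below in the first comparison, and 19.3% and 21.7% in the second. The 9 genes below, which include the 3, were dim, with means from 1.44 (ADGRG4) to 2.43 (ADGRL3). All of them but ADGRL3 were under the lower quartile of the gene means (2.12). Scramble control 1 read higher than scramble control 2 on each of the 9, and the part of its compressed range in this was not tested. Without scramble control 1 the medians of the 19 were -0.027 and -0.12, and after renewed quantile normalization -0.022 and -0.10. With that scaling 5 and 6 of the 19 lay below scramble on every array, against 10.9% and 22.4% of all genes. Above it lay 2 and 3 of the 19, against 10.3% and 21.3%. Of the 4 with the highest mean signals, CELSR1, a cadherin-type receptor of planar cell polarity, had 3.74 and 4.70 on the scramble arrays, 4.88, 4.46 and 5.35 on those labelled CtBP1 knockdown, and 4.71 and 4.92 on the CtBP2 knockdown arrays. It differed from scramble by 0.68 ± 0.36 and 0.59 ± 0.40 (SE), and by 0.20 and 0.11 without scramble control 1. CELSR2, of the same kind, differed by 0.66 ± 0.36 and 0.13 ± 0.39, the latter -0.20 after renewed quantile normalization, and by 0.16 and -0.37 without scramble control 1. ADGRA2, a receptor for Wnt7 signalling in brain vessels, differed by 0.53 ± 0.29 and 0.48 ± 0.31, and by 0.24 and 0.19 without scramble control 1. ADGRB2, a brain receptor, differed by -0.41 ± 0.32 and 0.39 ± 0.35, and by -0.24 and 0.56 without scramble control 1. None of the 19 passed the limma test, with adjusted p from 0.734 to 0.979 and from 0.438 to 0.996.

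Ligands and partners of the family came from a list of 31 genes, 30 of them measured. Limma called 0 in either comparison with scramble. With an unadjusted p under 0.05, 4 were higher and 1 lower for the arrays labelled CtBP1 knockdown, and 4 were higher and 1 lower for the CtBP2 knockdown. The shares of all genes were 2.87% and 1.92% in the first comparison and 7.19% and 2.98% in the second. Collagen IV, which ADGRG6 binds, was among them. COL4A2 was so in both comparisons, and COL4A1 only for the arrays labelled CtBP1 knockdown. For the CtBP2 knockdown the unadjusted p of COL4A1 in limma was 0.0587. COL4A1 had 3.04 and 3.26 on the scramble arrays, 3.92 to 4.33 on those labelled CtBP1 knockdown, and 3.74 and 3.46 on the CtBP2 knockdown arrays, so that both knockdowns lay above both controls, by 0.94 ± 0.18 and 0.45 ± 0.19 (SE). COL4A2 differed by 0.90 ± 0.29 and 0.91 ± 0.32, and by 0.46 and 0.47 without scramble control 1. TGM2, the transglutaminase bound by ADGRG1, had 6.59 and 6.85 on the scramble arrays, 6.78, 7.69 and 6.90 on those labelled CtBP1 knockdown, and 8.66 and 7.77 on the CtBP2 knockdown arrays. Both CtBP2 knockdown arrays lay above both controls, while 1 of the arrays labelled CtBP1 knockdown lay between the controls. The differences were 0.40 ± 0.37 for the arrays labelled CtBP1 knockdown and 1.49 ± 0.41 for the CtBP2 knockdown. The integrin subunit ITGB1 differed by 0.08 ± 0.13 and 0.75 ± 0.15, the former -0.10 after renewed quantile normalization. The adjusted p of these 4 genes lay between 0.257 and 0.862. The list's median differences were 0.06 and 0.04. They were 0.081 and -0.012 without scramble control 1 and -0.026 and -0.038 after renewed quantile normalization, so their direction was not stable.

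G proteins and other coupling genes came from a list of 36, of which 35 were measured and limma called 0. With an unadjusted p under 0.05, 1 was higher for the arrays labelled CtBP1 knockdown and 4 for the CtBP2 knockdown, against 2.87% and 7.19% of all genes, and 0 were lower in either, against 1.92% and 2.98%. ARRB1, or beta-arrestin 1, which desensitises receptors, had 4.34 and 5.44 on the scramble arrays, 6.73, 6.70 and 6.42 on those labelled CtBP1 knockdown, and 6.24 and 5.88 on the CtBP2 knockdown arrays. All knockdown arrays lay above both controls, by 1.73 ± 0.33 and 1.17 ± 0.36 (SE), and by 1.18 and 0.62 without scramble control 1. GRK2, a receptor kinase, differed by 0.34 ± 0.25 and 0.89 ± 0.27, and by 0.042 and 0.59 without scramble control 1. GNA12, the G12 subunit to which ADGRG1 couples, differed by 0.32 ± 0.24 and 0.71 ± 0.27, and by -0.08 and 0.31 without scramble control 1. GNAI3, an inhibitory subunit, differed by -0.34 ± 0.16 and 0.22 ± 0.18, and by -0.56 and -0.0057 without scramble control 1. The list's medians were 0.08 and 0.18 with both controls and -0.08 and -0.15 without scramble control 1, so their direction turned with that array. After renewed quantile normalization they were 0.039 and -0.0091.

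The actin-linked SRF and YAP factors and their target genes lie downstream of RhoA, and 25 of a list of 26 were measured. Of these, 22 lay above scramble on average for the arrays labelled CtBP1 knockdown and 21 for the CtBP2 knockdown, with 6 and 7 higher and 0 lower at an unadjusted p under 0.05, and limma called 0. Of all genes, 49.1% and 47.2% lay above on average, 2.87% and 7.19% were higher at that p, and 1.92% and 2.98% were lower. Without scramble control 1 the numbers above were 17 and 14 of 25. The medians were 0.65 and 0.74, and 0.07 and 0.08 without scramble control 1. They were 0.45 and 0.46 after renewed quantile normalization, with 20 and 19 of 25 above scramble. Of all 17958 genes, 8932 and 8627 then lay above. WWTR1, the YAP relative also called TAZ, had 6.38 and 7.46 on the scramble arrays, 8.25, 7.73 and 8.52 on those labelled CtBP1 knockdown, and 7.58 and 7.74 on the CtBP2 knockdown arrays. All its knockdown arrays lay above both controls, by 1.24 ± 0.37 and 0.74 ± 0.40 (SE), and by 0.70 and 0.20 without scramble control 1. ANKRD1, a YAP target, had 1.97 and 1.97 on the scramble arrays, 2.86, 2.03 and 1.85 on those labelled CtBP1 knockdown, and 3.58 and 3.12 on the CtBP2 knockdown arrays, which lay above all others. It differed from scramble by 0.28 ± 0.32 and 1.38 ± 0.35. Tissue factor F3 differed by 0.35 ± 0.25 and 1.30 ± 0.28, and the actin gene ACTG1 by 0.80 ± 0.30 and 1.13 ± 0.32. Without scramble control 1 the differences of ACTG1 were 0.40 and 0.72. The difference of F3 was then -0.07 for the arrays labelled CtBP1 knockdown and 0.88 for the CtBP2 knockdown.

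**Figure D5:**
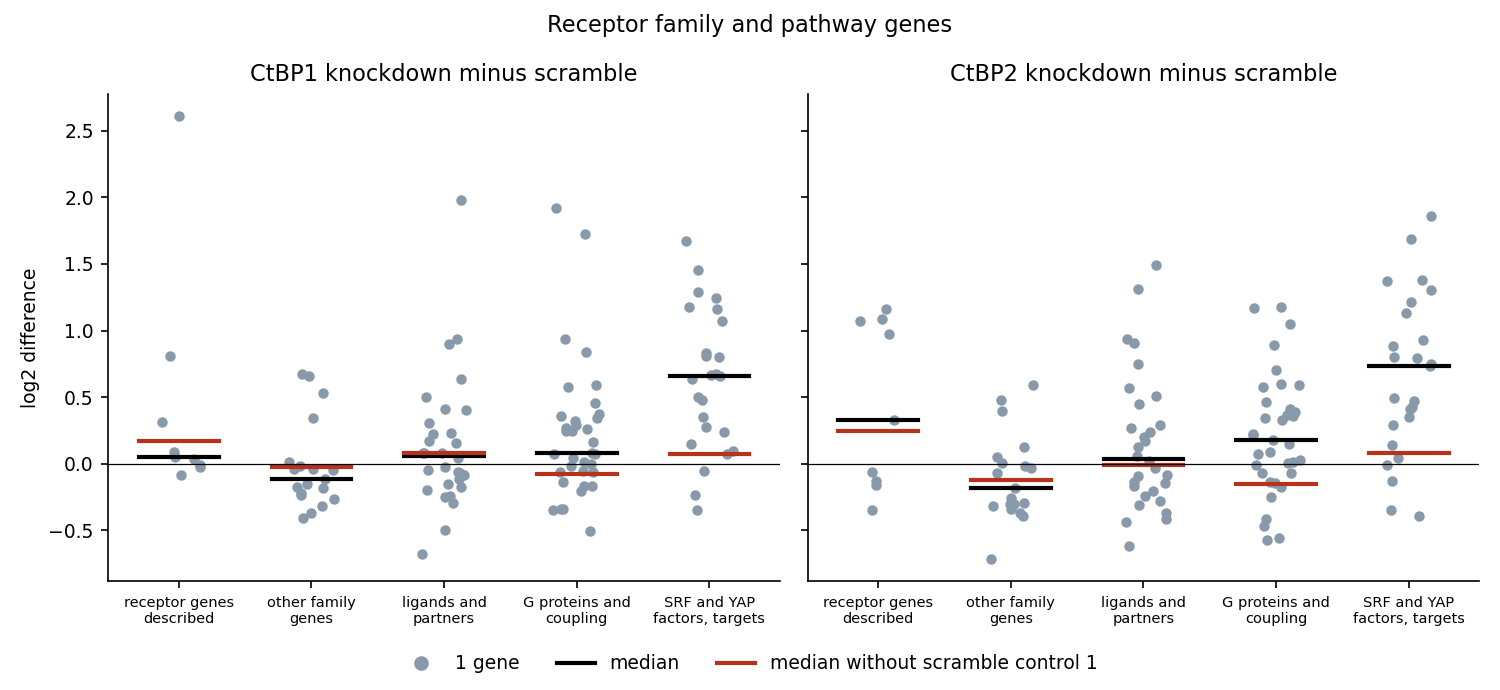
Log2 differences from scramble (vertical axis) of every measured gene of 5 groups, with the median over all arrays in black and the median without scramble control 1 in red. The median of the SRF and YAP group goes from 0.65 to 0.07 for the arrays labelled CtBP1 knockdown and from 0.74 to 0.08 for the CtBP2 knockdown, while the 9 receptor genes move from 0.05 to 0.17 and from 0.33 to 0.25. Medians after renewed quantile normalization are not drawn. They were 0.45 and 0.46 for the SRF and YAP group and 0.089 and 0.0090 for the receptor genes.

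The genes most like ADGRG1 over the 7 arrays, among 4782 genes with a mean above the median and a range of at least 1 unit, were ELK3 (Pearson r = 0.95), TSPAN1 (0.94), RAB11B (0.94), LIF (0.93) and JUP (0.93). They were picked for this likeness and the arrays share 1 outlying control, so no test is given. ELK3 encodes an ETS transcription factor, TSPAN1 a tetraspanin, RAB11B a GTPase of recycling endosomes, LIF a cytokine and JUP the junction protein plakoglobin. TSPAN1 had 6.54 and 6.98 on the scramble arrays, 7.80, 8.02 and 8.09 on those labelled CtBP1 knockdown, and 7.02 and 7.15 on the CtBP2 knockdown arrays, in the same order of groups as ADGRG1. Its CtBP2 knockdown arrays lay close above scramble control 2. The differences from scramble of the 5 genes were 0.88 to 1.21 for the arrays labelled CtBP1 knockdown and 0.32 to 0.64 for the CtBP2 knockdown, all smaller than those of ADGRG1. Without scramble control 1 the CtBP2 knockdown differed by 0.11 for TSPAN1, 0.16 for ELK3 and 0.18 for JUP. For LIF the value depends on the transcript cluster: the one with the largest variance differed by -0.62 and -0.65.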

How the data were processed

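Log2 signals, 1 per transcript cluster and array, were computed by the authors with RMA in Affymetrix Expression Console (per the submitters' processing notes) and deposited as a table of 33297 clusters. RMA corrects background, equalises probe distributions and summarises probes. The range of scramble control 1 was nonetheless narrower in the deposited signals, and the reason was not tested. For the array annotation, the genome build is not given in the sources used here. The 19181 clusters with a single symbol were kept, current symbols were taken through Entrez identifiers with RefSeq (GRCh38.p14), and the brightest cluster per gene was kept (17958 genes). No dim gene was filtered out. The number of arrays limits the precision.

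Means of the 3 groups were fitted to all 7 arrays with limma 3.58.1 (lmFit, eBayes) in R 4.3.3, with two-sided p-values adjusted by Benjamini-Hochberg over all genes and a threshold of 0.05. In simulated data, the share of genes recovered after a change of 1 log2 unit was 31%, 18% and 34% in the comparisons of CtBP1 knockdown with scramble, CtBP2 knockdown with scramble and the knockdowns with each other (17958 genes each), and 66%, 63% and 66% after a change of 2. The simulated noise was independent between genes and equal in spread on every array, with no outlying array like scramble control 1. These shares therefore cannot be taken as the recovery in the measured arrays. Figures were drawn with matplotlib 3.10.9.

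The receptor genes and the lists were chosen with earlier results of these data known. Named besides the receptor genes were the 4 further family genes with the highest mean, up to 4 genes per pathway list by the smallest p in any comparison, CTBP1, CTBP2, and the 5 genes most correlated with ADGRG1 (mean above the median, range of at least 1, no LOC, LINC, MIR, SNOR or Y-linked symbol). The fibroblast markers, 0 of 8 with a mean above the median of genes, served only to check the cell line. The alternatives changed the scaling (quantile normalization again, or centring on medians), the dim genes kept, the choice among several clusters of a gene, and the limma settings (trend, robust moderation, weights per array, 2 groups only, a block for the replicate number). Each array was also left out in turn, and a group's lone remaining array then borrows its spread from the rest.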

Additional observations from a re-analysis of the deposited data

Results flagged for a closer look

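CTBP2 was singled out because its 2 comparisons with scramble point in opposite directions on every array. The CtBP1 knockdown label went with CTBP2 values of 6.25, 6.31 and 6.27, above both controls (5.70 and 6.14), and 4.64 and 4.22 on the CtBP2 knockdown arrays, below both. The knockdowns differed by -1.85 ± 0.19 (SE of the limma fit), at an adjusted p of 0.129. No receptor gene had opposite directions of this kind. Groups of 2 and 3 arrays are too small for a test of single outlying arrays.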

How the results depend on the processing

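None of the 27 receptor results passed the threshold in the fit reported. Of their 477 values under alternatives, 3 passed (ADGRG1 and ADGRA3 without scramble control 2, ADGRA3 between the knockdowns with array weights) and 23 turned direction. Of 862 values for other named genes, 15 turned. The number of genes called ran from 0 to 3262 for the arrays labelled CtBP1 knockdown and from 0 to 3952 for the CtBP2 knockdown as single arrays were left out, the highest values without scramble control 2. For the CtBP2 knockdown it was 0 in place of 1 with robust eBayes, only the groups compared, array weights or the replicate block. Between the knockdowns it was 7 after renewed quantile normalization and 272 with array weights, in place of 0. Deviations from group means of same-numbered arrays correlated at -0.35 to 0.10 over genes. In a group of 2 arrays the deviations mirror each other, so these values cannot show whether the replicate numbers pair the arrays. With the replicate block 0 genes were called in each comparison (436, 1275 and 896 at an unadjusted p under 0.05 in limma). After renewed quantile normalization the difference from scramble turned for the arrays labelled CtBP1 knockdown to 0.089 for ADGRG2, -0.19 for ADGRL2, -0.16 for ADGRF1 and -0.10 for ITGB1, and for the CtBP2 knockdown to 0.0090 for ADGRG2, -0.0018 for ADGRE5, -0.20 for CELSR2 and -0.0091 for GNAI3. LIF turned to -0.62 and -0.65 with the cluster of largest variance, and for the CtBP2 knockdown to -0.0038 with the mean of its clusters. With single arrays left out, the difference of the arrays labelled CtBP1 knockdown from scramble ran from -0.22 to 0.19 for ADGRG2, -0.14 to 0.70 for ADGRG6, -0.11 to 0.057 for ADGRE5, -0.30 to 0.39 for ADGRL2, -0.10 to 0.18 for ADGRL4, -0.41 to 0.23 for ADGRA3, -0.078 to 0.71 for GNA12, -0.072 to 0.78 for F3, -0.027 to 0.48 for ANKRD1 and -0.59 to 0.093 for CTBP1. That of the CtBP2 knockdown ran from -0.34 to 0.070 for ADGRG2, -0.40 to 0.28 for ADGRL2, -0.81 to 0.11 for ADGRF1, -0.37 to 0.62 for CELSR2, -0.12 to 0.91 for ADGRB2 and -0.0057 to 0.44 for GNAI3. Between the knockdowns it ran from -0.22 to 0.55 for ADGRL1, -0.21 to 0.054 for ADGRL2 and -0.90 to 0.018 for ADGRF1. The cause of these turns was not tested.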
